A study of Rattus norvegicus with 20 samples.

Results

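The 9 genes described here encode the dopamine-responsive signalling proteins of striatal medium spiny neurons: Drd1, Drd2, Adora2a, Ppp1r1b, Pde10a, Pde1b, Rasgrp2, Rasd2 and Gnal. They were taken by symbol, as every probe set annotated to exactly 1 of these names, which gave 16 of the 31099 probe sets on the array and 9 of the 14217 genes it names. Array expression came from the amygdala's central nucleus, dissected from rats of the alcohol-preferring (P) line, which was selected over generations for voluntary drinking. In the ethanol group, 10 rats had access to 15 and 30% ethanol in adolescence, and in the water group 10 rats had water only. Each rat gave 1 array, all 20 rats are of the P line, and the labels give no sex, no age at dissection and no intake, so the water group is not a line that drinks little. The values are log2 probe set summaries (RMA, robust multi-array average), so a difference of 1 is a doubling of signal. Each gene is described by the probe set with the highest mean over the 20 arrays, and 7 genes have another probe set beside it.

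The central nucleus of the amygdala is built largely of GABA neurons and is often described as a striatum-like part of the amygdala, with medium spiny-type cells and a dopamine input from the midbrain. In such cells dopamine acts through the D1 receptor (Drd1), which raises cAMP, or the D2 receptor (Drd2), which lowers it. The adenosine receptor encoded by Adora2a sits with the D2 receptor in the indirect-pathway neurons of the striatum and raises cAMP. Gnal encodes the G protein subunit that couples the D1 receptor and this adenosine receptor to adenylyl cyclase, the phosphodiesterases Pde10a and Pde1b break cyclic nucleotides down, and Ppp1r1b encodes DARPP-32, which inhibits protein phosphatase 1 once protein kinase A has phosphorylated it. Rasgrp2 encodes CalDAG-GEFI, an exchange factor that activates Rap1, and Rasd2 encodes Rhes, a small GTPase of the striatum that dampens cAMP signalling.

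All 16 probe sets were above the limit on low values, a mean of log2 7.14 over the 20 arrays. Of the 11 measured central amygdala markers 10 were above that limit, as were the main probe sets of 10159 of all 14217 genes. Among the 10 were the kinase gene Prkcd and the peptide genes Sst, Crh and Nts, while Calcrl was below the limit and Tac2 was not measured. A value above the limit does not by itself identify the tissue. Of the 6 measured genes of dopamine synthesis and transport 4 were above the limit, and Th and the transporter gene Slc6a3 were below it. The cortical markers Emx1, Tbr1 and Neurod1 were also below it, while 13 of 16 measured cortical and basolateral genes were above it. The array medians lay between 7.92 and 7.97, and the correlation between any pair of arrays lay between 0.977 and 0.997. In 3 arrays, of ethanol rat 5 and of water rats 15 and 18, the mean correlation with the others was under 0.99, and the differences of the 9 genes, the counts of pairs and the list medians whose sign turns are also given without them. In bulk tissue, fewer cells of a type and less RNA per cell cannot be told apart.

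Promoter sequence was at hand for 6 of the 9 genes, as the 250 bases before each RefSeq start in assembly GRCr8. It is shown for Pde10a, the gene most like the mean of the others among animals, for Drd2, the dopamine receptor whose partners are described by group, and for Rasd2, which varied closely with Gnal, each read 5′ to 3′ on the strand of its gene. Capitals mark matches to the core of the cAMP response element, TGACG or its complement CGTCA, and to the GC box, GGGCGG or its complement CCGCCC, searched on both strands.
Pde10a, chr1:54765669-54765918, minus strand: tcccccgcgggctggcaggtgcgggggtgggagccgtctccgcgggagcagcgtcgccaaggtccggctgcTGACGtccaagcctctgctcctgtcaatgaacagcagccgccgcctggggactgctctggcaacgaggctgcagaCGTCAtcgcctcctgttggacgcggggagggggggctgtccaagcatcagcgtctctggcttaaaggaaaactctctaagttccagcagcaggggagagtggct
Drd2, chr8:58605153-58605402, plus strand: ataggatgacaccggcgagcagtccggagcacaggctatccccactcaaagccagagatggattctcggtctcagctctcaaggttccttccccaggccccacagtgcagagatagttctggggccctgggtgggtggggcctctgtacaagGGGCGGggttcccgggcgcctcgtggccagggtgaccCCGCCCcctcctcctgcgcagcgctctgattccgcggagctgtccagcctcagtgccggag
Rasd2, chr19:13599778-13600027, plus strand: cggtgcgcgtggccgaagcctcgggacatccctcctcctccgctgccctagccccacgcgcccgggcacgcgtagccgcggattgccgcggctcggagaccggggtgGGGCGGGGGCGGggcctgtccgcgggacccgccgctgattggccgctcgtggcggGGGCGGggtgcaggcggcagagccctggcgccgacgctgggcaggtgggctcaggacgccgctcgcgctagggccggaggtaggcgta

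In the Pde10a promoter, TGACG lies 179 bases and CGTCA 104 bases before the start. That core was found in 18.2% of the 33469 promoters in the RefSeq table, and among the 6 of the 9 genes with a promoter at hand it was found in Pde10a alone. The complete 8-base element TGACGTCA, in 1.59% of all promoters, was in none of the promoters at hand. The Drd2 promoter holds GC boxes 98 and 61 bases before the start, and the Rasd2 promoter holds them at 143, 137 and 88 bases, where the matches at 143 and 137 touch. A GC box was found in 30.5% of all promoters, and also at the other annotated Pde10a start and in Rasgrp2. The Drd1 and Gnal windows held none of the 3 motifs. A match describes letters in this window and not a bound site.

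For every one of the 9 genes the mean was higher in ethanol rats than in water rats, by 0.10 to 0.40 on the log2 scale (1.07- to 1.32-fold), with a median difference of 0.21. None of these differences passed the test (limma across 18625 probe sets, Benjamini-Hochberg adjusted p of 0.317 to 0.879), where 0.0215% of all probe sets were called. Without the 3 arrays that stand apart the 9 differences were 0.11 to 0.43. Since 56.7% of the 10159 genes tested had a higher mean in ethanol rats, and the 9 genes vary together among animals, the 9 signs are not 9 independent observations. The median difference of all genes was 0.013.

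Drd1 ranged over 10.27, 10.80 and 11.04 (lowest, median and highest) in ethanol rats and 9.96, 10.51 and 11.05 in water rats. Both the highest and the lowest Drd1 values belong to water rats (16 and 14), and the groups overlap along almost their whole range. The difference was 0.18 (SE 0.121, limma adjusted p = 0.525). The other Drd1 probe set differed by 0.34 (SE 0.135), with an unadjusted p of 0.0189 and an adjusted p of 0.320 in limma, and 8 of 10 ethanol rats were above the water mean at either probe set. Without water rat 14 the main difference was 0.11.

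Drd2, the receptor that inhibits adenylyl cyclase, ranged over 8.42, 9.15 and 9.66 in ethanol rats and 8.43, 9.02 and 9.50 in water rats. Ethanol rats held both ends of the range (rat 1 lowest, rat 2 highest), and 7 of 10 were above the water mean. Its difference was 0.20 (SE 0.153, limma adjusted p = 0.585). It was 0.28 without ethanol rat 1 and 0.14 without water rat 13, and Drd2 has no other probe set among the 16.

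Adora2a had the widest spread among the 9 genes. Its values were 8.67, 11.00 and 12.12 in ethanol rats and 8.88, 10.66 and 11.56 in water rats, a 10.9-fold range over the 20 animals. Ethanol rat 1 lies far below the rest of its group, water rat 14 is the lowest of the water rats, and ethanol rat 5 is the highest. The difference was 0.40 with a 95% interval of -0.35 to 1.15 (limma adjusted p = 0.639). It was 0.66 without ethanol rat 1 and 0.22 without water rat 14. The other Adora2a probe set differed by 0.34 (limma adjusted p = 0.433).

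Gnal, which carries the receptors' signal to adenylyl cyclase, ranged over 10.58, 10.82 and 11.20 in ethanol rats and 10.36, 10.59 and 10.92 in water rats. Of the ethanol rats, 9 of 10 were above the water mean and 2 were above every water rat. The difference was 0.22 (SE 0.0893), with an unadjusted p of 0.0243 and an adjusted p of 0.336 in limma. The other Gnal probe set differed by 0.12 (limma adjusted p = 0.541).

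Ppp1r1b, the phosphatase inhibitor DARPP-32, ranged over 9.20, 11.08 and 11.63 in ethanol rats and 10.33, 10.85 and 11.42 in water rats. Ethanol rat 1 is more than 1 log2 unit below every other animal, while the other 9 ethanol rats lie within or above the water range. The difference was 0.10 with an interval of -0.37 to 0.57 (limma adjusted p = 0.879), the smallest of the 9. It was 0.29 without ethanol rat 1 and 0.02 without ethanol rat 5.

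Pde10a, a phosphodiesterase concentrated in medium spiny neurons, ranged over 10.46, 11.06 and 11.48 in ethanol rats and 10.35, 10.80 and 11.32 in water rats. Its difference was 0.23 (SE 0.123, limma adjusted p = 0.430), with 8 of 10 ethanol rats above the water mean and 1 above every water rat. The other Pde10a probe set differed by 0.35 (limma unadjusted p = 0.0237, adjusted p = 0.334). Pde1b, the calcium- and calmodulin-dependent phosphodiesterase, ranged over 10.92, 11.70 and 12.28 in ethanol rats and 11.15, 11.42 and 12.14 in water rats. The ethanol rats held both ends of the Pde1b range, and 9 of 10 were above the water mean. Its difference was 0.19 (SE 0.144, limma adjusted p = 0.572), which became 0.13 without ethanol rat 5. The other Pde1b probe set differed by 0.24 (limma unadjusted p = 0.0149, adjusted p = 0.316).

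Rasgrp2 had the narrowest spread of the 9 and the smallest unadjusted p among their main probe sets. It ranged over 9.08, 9.49 and 9.77 in ethanol rats and 9.04, 9.24 and 9.50 in water rats. Here 4 ethanol rats were above every water rat, and ethanol rat 1, the lowest animal in Adora2a, Ppp1r1b, Drd2 and Pde1b, was the highest of all. The difference was 0.21 with an interval of 0.04 to 0.37 (limma unadjusted p = 0.0162, adjusted p = 0.317). The other Rasgrp2 probe set differed by 0.01 (limma adjusted p = 0.973), with 2 of 10 ethanol rats above its water mean, so the 2 probe sets of Rasgrp2 do not give the same difference. Rasd2, the GTPase Rhes, ranged over 10.68, 10.97 and 11.51 in ethanol rats and 10.43, 10.77 and 11.47 in water rats. Of the ethanol rats, 8 were above the water mean and 1 was above every water rat. The Rasd2 difference was 0.22 (SE 0.132, limma adjusted p = 0.477), and its other probe set differed by 0.25 (limma unadjusted p = 0.0274, adjusted p = 0.345).

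**Figure D1:**
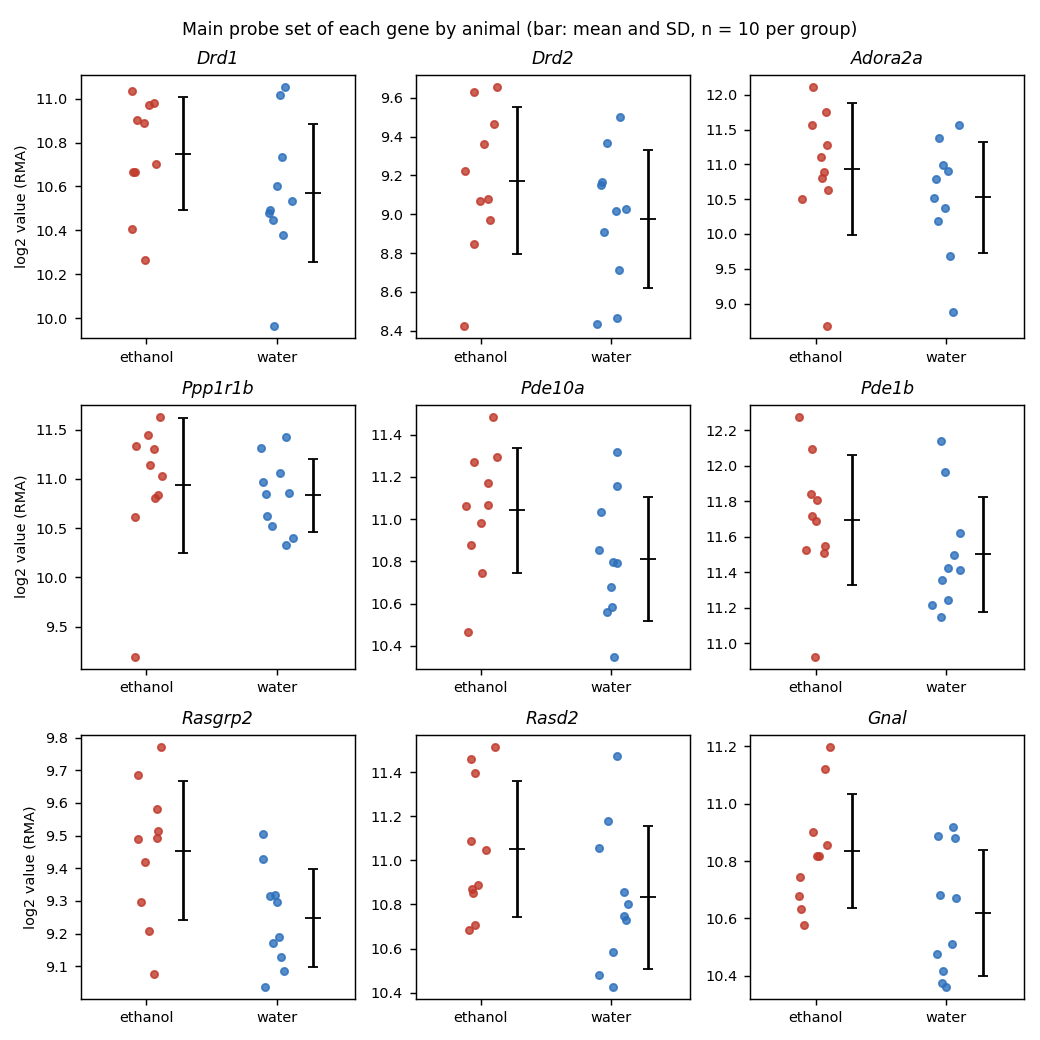
Log2 value of the main probe set of each of the 9 genes in each animal, ethanol left of water, with the mean and SD of each group (n = 10) as a bar. The groups overlap in every panel, and 1 ethanol rat at 8.67 in Adora2a and at 9.20 in Ppp1r1b lies apart from the others of its group.

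Over all 16 probe sets the mean was higher in ethanol rats in 16, with a median difference of 0.22, where 57.8% of all probe sets tested had a higher mean and the median was 0.016. An unadjusted limma p under 0.05 was found at 6 of the 16, all higher in ethanol rats, where 7.37% of all probe sets were higher at that level. Among the main probe sets it was 2 of 9, Rasgrp2 and Gnal, where 6.33% of genes were higher at that level. Probe sets of 1 gene vary together among animals, as do most of the 9 genes, so neither count is one of independent observations. At none of the 16 were the groups free of overlap, as they were at 0.0268% of all probe sets. The arrays fall into 3 runs of accession numbers, which no label names as a batch, with 4, 4 and 2 rats per group. The median difference of the 9 genes was 0.24, 0.12 and 0.36 in the 3 runs, and the negative values among the 16 probe sets were -0.11 for Ppp1r1b in run 1, -0.04 for Rasd2 in run 2 and -0.25 for the other Rasgrp2 probe set in run 2.

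**Figure D2:**
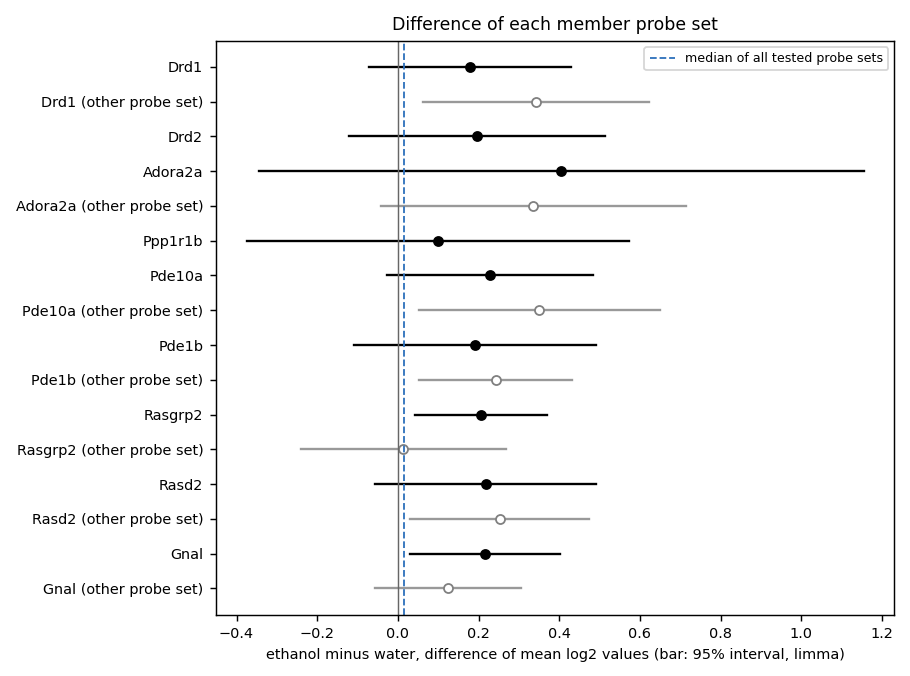
Difference of mean log2 values, ethanol minus water, for the 16 probe sets, with 95% intervals from limma; filled points are the main probe sets and open points the others. All 16 points lie at or right of 0, between 0.01 for the other Rasgrp2 probe set and 0.40 for Adora2a, and the intervals of 6 probe sets lie above 0 before any adjustment.

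The 9 genes varied widely among animals of the same group. The pooled SD within groups was above the median of all genes (0.128) for 9 of 9, with a median of 0.317 over the 9 genes. Adora2a, at 0.88, was 6.84 times that median and at the 99.5th percentile of all genes tested. Ppp1r1b was 4.31 times, Drd2 2.87 times, Pde1b 2.70 times and Rasd2 2.48 times the median, and Rasgrp2 was nearest to it at 1.44 times. This spread sets the precision: the SE of the difference was 0.0790 to 0.361 for the 9 genes, where the median SE of all probe sets was 0.0624. Such spread was not confined to the 9 genes. Among other neuron markers the SE was 0.279 for Scn4b, 0.347 for Crh and 0.488 for Nrn1. It was 0.0637 for Strn and 0.0441 for Gad1.

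The same animals were high or low in gene after gene. Ethanol rats 2, 4 and 5 and water rats 15 and 16 were above the median of their group in 9 of 9 genes. Ethanol rats 3, 7 and 8 and water rats 14 and 20 were above it in 0 of 9. Ethanol rat 1 was above it in 1 of 9, the exception being Rasgrp2.

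Within ethanol rats the 36 pairs of genes had a median Pearson r of 0.697, and within water rats 0.771, where the median over all 51597561 pairs of tested genes was 0.034 in ethanol rats and 0.011 in water rats. An r of 0.8 or more was found in 11 of 36 pairs in ethanol rats (1.34% of all gene pairs) and 16 of 36 in water rats (1.75% of all gene pairs). After adjustment over the 72 tests of both groups (two-sided permutation test, 100000 resamples), 20 of 36 pairs passed in ethanol rats and 23 of 36 in water rats. The lowest r that passed was 0.691 in ethanol rats, reached by 4.15% of all gene pairs, and 0.679 in water rats, reached by 5.32%. By Spearman's rho 26 pairs passed in ethanol rats and 19 in water rats. Without the 3 arrays that stand apart 12 pairs passed in ethanol rats and 18 in water rats, and 12 passed in ethanol rats also without ethanol rat 4 and without ethanol rat 5. In no pair that passed by Pearson r over all arrays did r fall under 0.5 when the 2 animals farthest from the median were left out. Drd2 and Pde10a in water rats passed by rho alone (adjusted permutation p of 0.0488), and their r was 0.363 without the 2 farthest.

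**Figure D3:**
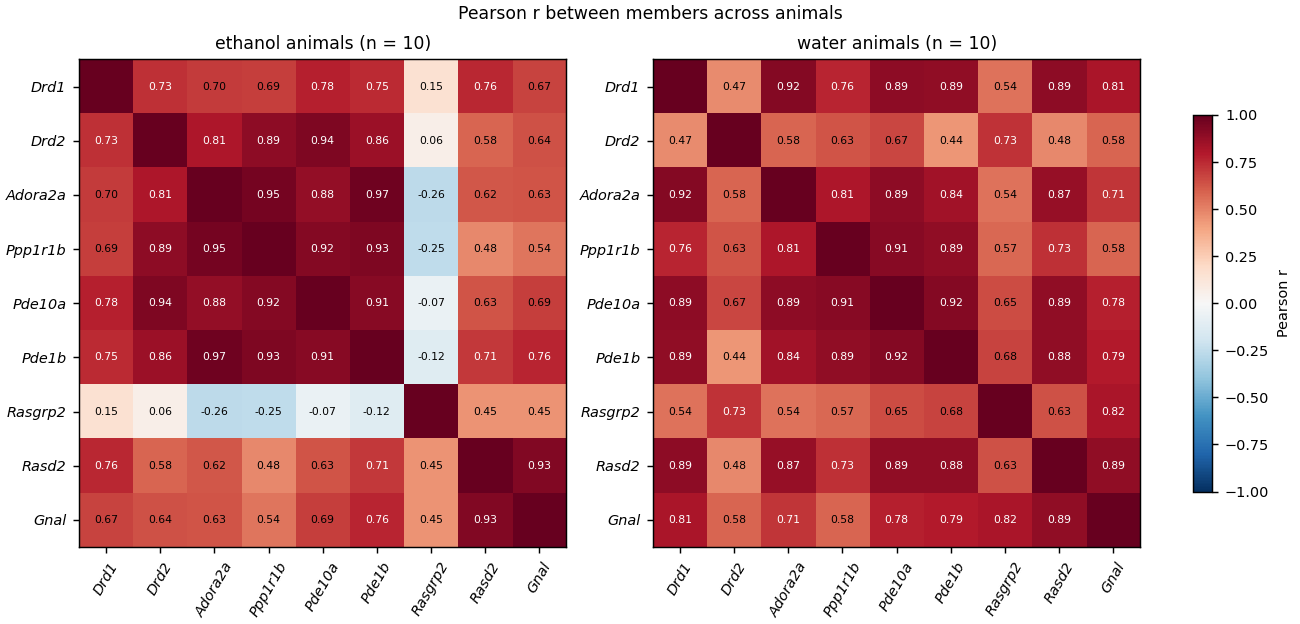
Pearson r between the main probe sets of each pair of the 9 genes across 10 ethanol rats (left) and 10 water rats (right), printed in each cell. Most cells are above 0.5 in both groups; the Rasgrp2 row of the ethanol rats runs from -0.26 to 0.45, and the Drd2 row of the water rats from 0.44 to 0.73.

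Among ethanol rats the pairs with the highest r joined the adenosine receptor, DARPP-32 and the phosphodiesterases. Adora2a and Pde1b gave r = 0.971 and rho = 0.988 (adjusted permutation p of 0.000840 for r and 0.00144 for rho), and r was 0.934 without the 2 farthest animals. Adora2a and Ppp1r1b gave r = 0.954 and rho = 0.879 (adjusted permutation p of 0.00240 and 0.00762), and r was 0.740 without the 2 farthest animals, one of them ethanol rat 1. Drd2 and Pde10a gave r = 0.936 and rho = 0.927 (adjusted permutation p of 0.000840 and 0.00381), with 0.894 without the 2 farthest. The GTPase Rasd2 and the G protein Gnal gave r = 0.927 and rho = 0.952 (adjusted permutation p of 0.000840 and 0.00216), with 0.843 without the 2 farthest.

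Among water rats the highest pair was Drd1 and Adora2a, with r = 0.919 and rho = 0.855 (adjusted permutation p of 0.00185 and 0.0105), and r was 0.772 without the 2 farthest animals. In the striatum these receptors are known from different neurons. Pde10a and Pde1b gave r = 0.916 and rho = 0.952 (adjusted permutation p of 0.000840 and 0.00216), with 0.899 without the 2 farthest. Pde1b passed with 7 of its 8 partners in either group, and Pde10a with 6 of 8 in either group.

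The D1 and D2 receptors themselves gave r = 0.733 and rho = 0.709 in ethanol rats (adjusted permutation p of 0.0304 and 0.0452), and r = 0.473 and rho = 0.358 in water rats (adjusted permutation p of 0.189 and 0.334). Without the 2 farthest animals r was 0.782 in ethanol rats and 0.156 in water rats. The call in ethanol rats was lost without rat 1, 4, 5 or 6, where r was 0.643, 0.700, 0.708 and 0.724, and the difference between the groups was not tested. Drd2 passed with 5 of 8 partners in ethanol rats (median r 0.771) and with 1 of 8 in water rats (median r 0.581), that 1 being Rasgrp2 (r = 0.726, rho = 0.758, adjusted permutation p of 0.0349 and 0.0328, r of 0.820 without the 2 farthest). Drd1 passed with 6 of 8 in either group.

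Rasgrp2 stood outside this covariation in ethanol rats, where it passed with 0 of 8 partners and r ran from -0.263 to 0.451 with a median of -0.004. In water rats it passed with 3 of 8, r ran from 0.540 to 0.815 with a median of 0.645, and its closest partner was Gnal (r = 0.815, rho = 0.794, adjusted permutation p of 0.0137 and 0.0223, r of 0.725 without the 2 farthest). The low values in ethanol rats rest on rat 1: without it, r between Rasgrp2 and the other 8 ran from 0.389 to 0.698 with a median of 0.536 in 9 ethanol rats, and none of the 8 passed after adjustment (lowest unadjusted permutation p 0.0384). In that rat the mean of the genes shared by medium spiny neurons was the lowest of the ethanol group (10.10), as was that of D2-type genes (10.68). The mean of D1-type genes was not low (9.49, where the group mean was 9.45). The mean of oligodendrocyte and myelin genes was the highest of the group (12.30, against 10.76 in the lowest ethanol rat). Other lists also set this rat apart. Its mean of dopamine synthesis and transport genes was the highest of the group (10.09), and that of intercalated cell genes the lowest (10.55). Its pan-neuronal mean was 12.58 and its pallidal and cholinergic mean 9.26, where the group means were 12.42 and 8.13. Why this rat differs was not tested.

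**Figure D4:**
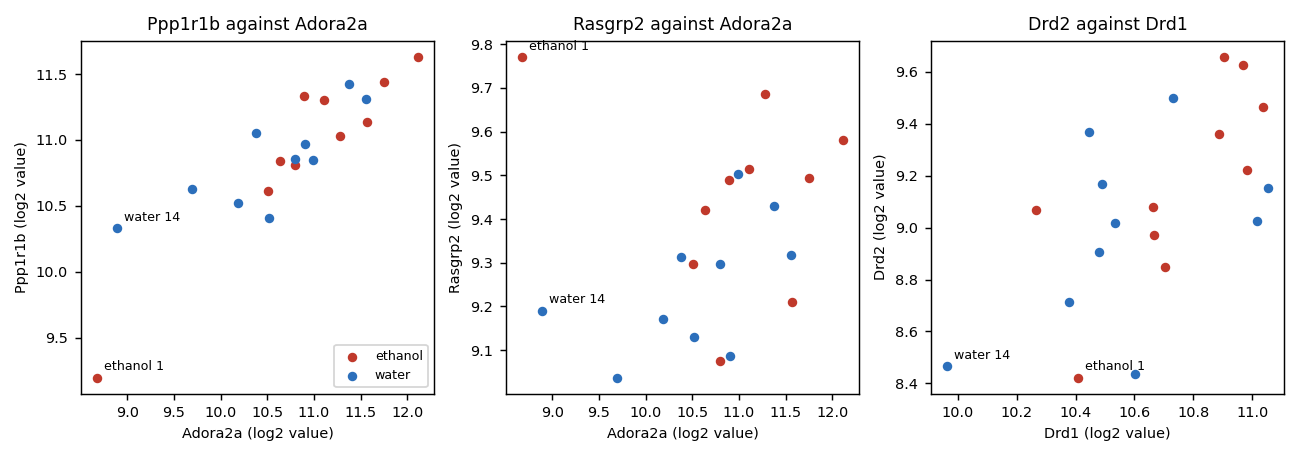
Log2 values of Ppp1r1b against Adora2a, Rasgrp2 against Adora2a and Drd2 against Drd1, 1 point per animal, ethanol rats in red and water rats in blue. Ethanol rat 1 is lowest on both axes in the left panel, and in the middle panel it combines the lowest Adora2a value with the highest Rasgrp2 value, 9.77.

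Where a gene has another probe set, the 2 probe sets varied together among animals. Over 20 rats, with group means removed, r between them was 0.933 for Gnal, 0.896 for Adora2a, 0.830 for Drd1, 0.754 for Pde10a, 0.712 for Rasd2, 0.710 for Rasgrp2 and 0.677 for Pde1b. All 7 passed (permutation test, adjusted p of at most 0.00248 over 7 tests), with rho between 0.581 and 0.916 and r between 0.594 and 0.925 without the 2 farthest animals. Probe sets of 1 gene share the same hybridised sample, so this likeness does not add animals.

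Each gene was also set against the mean of the other 8 over 20 rats, with group means removed, as a measure of likeness among 10151 genes. Pde10a ranked 2 with r = 0.924 and Pde1b ranked 4 with r = 0.908. Adora2a, Rasd2, Drd1 and Gnal ranked 21, 22, 24 and 35, Ppp1r1b 61 and Drd2 93, and Rasgrp2 ranked 1636 with r = 0.307. The Rasgrp2 rank includes ethanol rat 1. Without that rat its median r with the other 8 in ethanol rats was 0.536. The genes outside the 9 with the profile most like their mean were Nexn (r = 0.952), which encodes an actin-binding protein, Neu2 (0.934), a sialidase, Gpr155 (0.920), Gng7 (0.917), the G protein gamma subunit that joins the product of Gnal in the striatum, and Hpca (0.914), a neuronal calcium sensor. For Drd1 they were the retinoic acid receptor gene Rarb (0.883), the guanylyl cyclase subunit gene Gucy1a1 (0.870) and Syndig1 (0.868). For Drd2 they were Lratd1 (0.824), Arl15 (0.822) and Ptpn5 (0.80), the last encoding the striatal-enriched phosphatase STEP. For Ppp1r1b they were Ano3 (0.939), Ankrd45 (0.933) and Adcy5 (0.924), the main adenylyl cyclase of the striatum. These r are descriptions over 20 arrays that share a dissection and a platform.

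The 9 genes were also compared with the means of 4 gene lists within each group (72 permutation tests, a set of lists chosen after the values were seen). With the mean of the genes shared by medium spiny neurons, 5 of the 9 passed in ethanol rats. Of 10135 genes outside the list, 0.77% had an r at or above the weakest of the 5. The 5 were led by Ppp1r1b (r = 0.987, rho = 0.964, adjusted permutation p of 0.00108 and 0.00252, 0.977 without the 2 farthest). In water rats 6 of 9 passed, where 1.57% of genes had an r at or above the weakest of the 6, and 3 of 9 passed by rho (Ppp1r1b, Pde10a and Pde1b). They were led by Pde10a (r = 0.949, rho = 0.915, adjusted permutation p of 0.00158 and 0.00828, 0.934 without the 2 farthest). With the mean of oligodendrocyte and myelin genes 0 of 9 passed in either group. There r ran from -0.423 to 0.574 in ethanol rats (median -0.274) and from -0.205 to 0.241 in water rats (median 0.004). Without the 2 farthest animals it ran from -0.703 for Ppp1r1b to 0.321 for Rasgrp2 in ethanol rats. In water rats it then ran from -0.488 for Rasgrp2 to 0.077 for Rasd2. With 10 animals per group, a pair that did not pass can still be related. With the mean of cortical and basolateral genes 1 passed (0.414% of genes outside the list had an r as low), Rasgrp2 in ethanol rats (r = -0.832, rho = -0.867, adjusted permutation p of 0.0259 and 0.0182, -0.772 without the 2 farthest). With the mean of central amygdala genes 1 passed, Drd1 in water rats (r = -0.775, adjusted permutation p = 0.0487), and 0.838% of genes had an r as low. Its rho was -0.648 and did not pass (adjusted permutation p = 0.203), and r was -0.724 without the 2 farthest. The negative sign was not particular to Drd1: over the 9 genes r in water rats ran from -0.775 to 0.102, with a median of -0.587. In ethanol rats r with this list ran from -0.560 to 0.239, with a median of -0.148.

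Other genes of the same neurons and the same pathway had smaller median differences than the 9, and none of them passed the test either. Of the 24 tested genes shared by all medium spiny neurons, 21 were higher and 3 lower in ethanol rats, with a median difference of 0.11. That median was 0.02 with the myelin mean as a covariate, 0.06 without ethanol rat 5, 0.07 without water rat 14 and 0.20 without ethanol rat 1. The 2 with the smallest p were Hpca (11.86 ± 0.31 in ethanol rats and 11.58 ± 0.27 in water rats, SD, n = 10 each) and the kinase gene Dclk3 (9.05 ± 0.11 in ethanol rats and 8.89 ± 0.21 in water rats), with limma adjusted p of 0.347 and 0.362. Of the 7 tested D1-type genes 4 were higher and 3 lower (median 0.06), with a difference of 0.14 for the muscarinic receptor gene Chrm4 and 0.15 for the transcription factor gene Isl1. The 3 lower were Tac1 (-0.09), Sfxn1 (-0.03) and Slc35d3 (-0.0094). The 3 tested D2-type genes were all higher (median 0.10), with a difference of 0.16 for the receptor gene Gpr6 and 0.10 for Penk, which encodes enkephalin. The D2-type median was 0.01 with the myelin mean as a covariate, 0.06 without ethanol rat 5 and 0.19 without ethanol rat 1, and the D1-type median ran from -0.0058 without water rat 13 to 0.14 without ethanol rat 10.

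In the dopamine, cAMP and DARPP-32 pathway, 29 of 35 tested genes were higher and 6 lower in ethanol rats, with a median difference of 0.06, and 4 of 35 had an unadjusted p under 0.05, all higher, where 6.33% of genes were higher at that level. The 35 genes share the same arrays, so they are not independent observations either. The protein kinase A subunit gene Prkar2b averaged 12.14 ± 0.08 in ethanol rats and 11.99 ± 0.14 in water rats, and Cdk5, a kinase that phosphorylates DARPP-32, averaged 10.33 ± 0.11 in ethanol rats and 10.17 ± 0.17 in water rats (SD, n = 10 each; limma adjusted p of 0.313 and 0.320). The receptor genes Drd3, Drd4 and Drd5 were below the limit on low values. Of 4 tested genes of dopamine synthesis and transport 3 were higher, with a difference of 0.16 for the decarboxylase gene Ddc (0.03 at its other probe set) and -0.09 for the monoamine oxidase gene Maob; their median of 0.05 was -0.00024 with array quality weights. The central amygdala markers had 8 of 10 higher (median 0.07), with a difference of 0.22 for the neurokinin receptor gene Tacr3 and 0.16 for Prkcd. Of the 4 tested intercalated cell genes 2 were higher (median 0.02), with 0.31 for Pax6 and 0.11 for Meis2. The other 2 were lower, with -0.15 for Tshz1 and -0.08 for Foxp2. The central amygdala median ran from 0.0050 without water rat 16 to 0.14 without ethanol rat 5 or 10. The intercalated median turned negative without a filter (-0.08), with the myelin covariate (-0.06), with cyclic loess (-0.0061) and without ethanol rat 10 or water rat 14, 17 or 18.

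Genes of other cell types also differed in their means. All 18 tested oligodendrocyte and myelin genes were lower in ethanol rats, with a median of -0.37, 8 of 18 at an unadjusted p under 0.05 (5.77% of genes were lower at that level) and 0 past the adjusted threshold in limma, with differences of -0.45 for Bcas1 and -0.34 for Sox10. These 18 genes were measured on the same arrays and are not 18 independent observations. Their mean level ranged from 10.76 to 12.30 in ethanol rats and from 11.42 to 12.67 in water rats. With the myelin mean as a covariate the differences of 8 of the 9 genes were positive, between 0.13 for Pde1b and 0.34 for Adora2a, and Ppp1r1b was at -0.04. All 14 pan-neuronal genes were higher in ethanol rats (median 0.11), with 0.14 for Snap25 and 0.17 for Thy1 (0.38 at its other probe set). The mean of the pan-neuronal genes ranged from 12.27 to 12.61 in ethanol rats and from 12.05 to 12.46 in water rats.

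Astrocyte genes were lower in 10 of 11 (median -0.07, with -0.51 for Gfap and -0.28 for Aldh1l1). Choroid plexus and ependyma genes were lower in 5 of 5 (median -1.08, with -1.08 for Tmem212 and -0.54 for Foxj1), and their mean ranged from 6.87 to 11.55 in ethanol rats and from 7.30 to 12.02 in water rats. Cortical and basolateral genes were lower in 8 of 13 (median -0.10, with -0.12 for Rorb and -0.39 for Slc17a6). That median turned positive with array quality weights (0.07), without the 3 arrays that stand apart (0.04), and without ethanol rat 1 or 9 or water rat 13, 15, 16 or 20 (0.01 to 0.07). With the cortical covariate it was 0.02, but that covariate is the mean of these same genes, so their adjusted differences cancel out by construction. Pallidal and cholinergic genes were lower in 3 of 4 (median -0.21, with -0.44 for Slc5a7 and -0.39 for Chat), and their median was 0.13 with the myelin covariate. Microglia genes were lower in 6 of 10 (median -0.03, with -0.12 for Tmem119 and 0.15 for Itgam), and their median was 0.01 with the myelin covariate. General GABA neuron genes were higher in 4 of 7 (median 0.05, while the mean of the list was -0.07 in ethanol minus water), with 0.11 for the vesicular transporter gene Slc32a1 and 0.15 for Gad2. The 3 lower were Dlx1 (-0.34), Pvalb (-0.31) and Vip (-0.28). None of these genes passed the adjusted threshold in limma. The part of these cell types in the differences of the 9 genes was not tested. Only the myelin and cortical means were used as covariates. The myelin mean itself differed between the groups (-0.37), so that fit cannot tell cell content and ethanol apart.

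**Figure D5:**
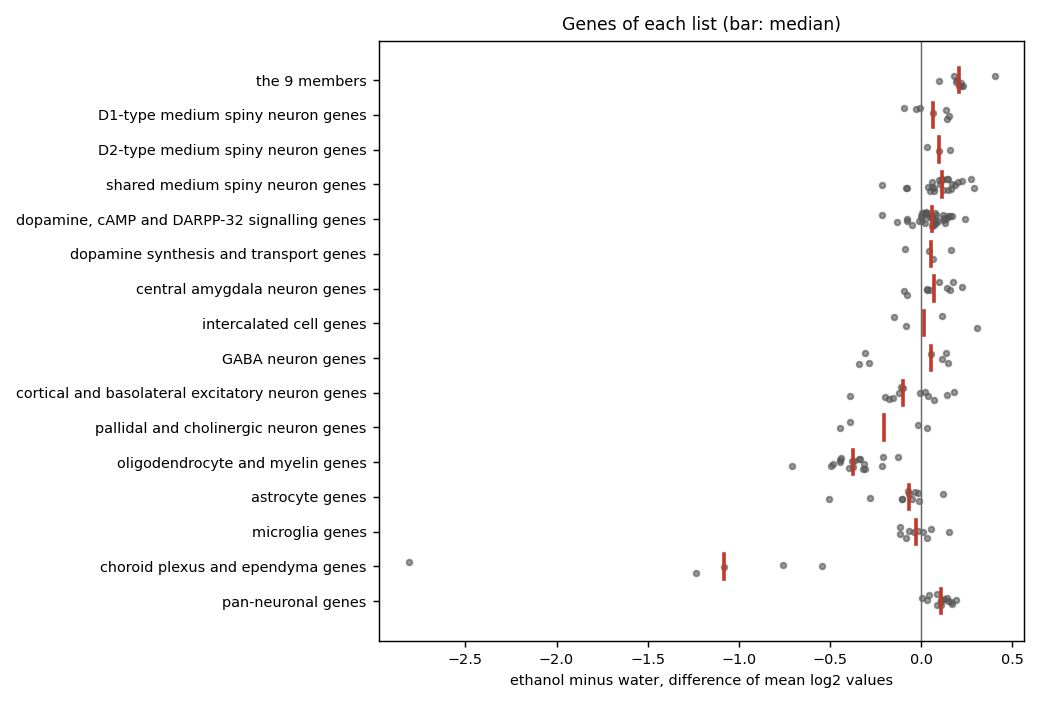
Difference of mean log2 values, ethanol minus water, for each tested gene of the 9 described here and of 15 gene lists, 1 point per gene, with the median as a red bar. The 9 genes lie between 0.10 and 0.40, most other medium spiny neuron genes lie between 0 and 0.3, and the oligodendrocyte and myelin genes all lie below 0.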

How the data were processed

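Total RNA of 20 rats was labelled with the Affymetrix 3' IVT Express kit and hybridised to 1 array per rat, per the labels' protocols. The authors deposited log2 values per probe set, made with RMA per the submitters' processing notes; its version was not given in the sources used here. Values between 3.82 and 16.16 fit a log2 scale.

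Of 31099 probe sets, 57 were controls, 20826 had 1 gene symbol, 436 several and 9780 none. Names were checked against the RefSeq gene table of GRCr8, which held 20758 of the gene IDs and changed 0 symbols. Probe sets with a mean above the 40th percentile (log2 7.14) were tested, which left 18625. The ethanol group was set against the water group with limma 3.58.1 in R 4.3.3 (lmFit, eBayes, two-sided, Benjamini-Hochberg, threshold 0.05). Pairs of genes were tested within each group by two-sided permutation of Pearson r and Spearman rho with 100000 resamples. The 2 farthest animals were those farthest from the median of the first gene of a pair, of the main probe set, or of the list mean. Python 3.11.15, numpy 2.4.6, pandas 2.3.3 and matplotlib 3.10.9 were used, and the scripts were tested on simulated data. Animal numbers do not recur between groups, so no pairing was made. The limma p-values set a difference against the variation between these rats, moderated across probe sets. The permutation p-values set an r against its values after the animals are shuffled. The number of arrays limits the precision.

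The 9 genes, the 15 gene lists and the alternatives were chosen with earlier results of these data known. Named genes were the 9, the 2 genes with the smallest p of each list, and the genes outside the 9 with the highest r to their mean (5) or to Drd1, Drd2 and Ppp1r1b (3 each). Alternatives were other filters, centring, cyclic loess, array weights, a robust eBayes trend, the accession run as a block, myelin and cortical scores as covariates, the arrays that stand apart left out, 1 probe set per gene, and each animal left out in turn.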

Additional observations from a re-analysis of the deposited data

Results flagged for a closer look

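In 3 of the 32 groups of values that the 16 probe sets give, the lowest animal lay far from the other 9 by Dixon's test at the 95% level, which chance does in about 1 in 20 groups. Adora2a stood at 8.6729 in ethanol rat 1, with a gap to the next animal of 0.533 of the group's range. Ppp1r1b stood at 9.1965 in the same rat, with a gap of 0.582 of the range. The other Drd1 probe set stood at 8.1080 in water rat 14, with a gap of 0.513 of the range. Neither of these rats is among the 3 arrays that stand apart.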

How the results depend on the processing

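None of the 9 genes passed the adjusted threshold under any setting tried (lowest adjusted limma p 0.219). Their differences kept their sign in 285 of 286 alternative values. The exception was Ppp1r1b at -0.036 with the myelin covariate. That count is not one of independent checks. Other filters, the robust eBayes trend, the accession run as a block and 1 probe set per gene leave each difference unchanged. Fits without 1 animal share all the other arrays. Over all probe sets 4 were called, against 2 with the filter at the 60th percentile, 23 with array quality weights, and 0 under the myelin covariate or with 1 probe set per gene, where 2304 probe sets and 1278 genes had an unadjusted p under 0.05. Leaving out 1 animal gave 1 to 8, with 1 without ethanol rat 6 or water rat 14, 16, 17 or 18, 2 without ethanol rat 3 and 8 without water rat 20. Pairs that passed numbered 43 of 72, and 34 to 44 when 1 animal was left out, 45 by Spearman's rho, 40 after median centring, 35 centred on the accession run, 30 without the arrays that stand apart, 44 with all probe sets of a gene averaged, 54 and 53 on residuals of the myelin and cortical scores, and 30 of 36 over 20 rats with group means removed. Drd1 and Drd2 passed in water rats on residuals of the cortical score (r = 0.720, adjusted permutation p = 0.0292). The cause of these changes was not tested. No paired analysis was possible because no animal number occurs in both groups. The spread among 10 animals limits what can be detected: the intervals of the 9 differences reach from -0.37 to 1.15.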
